A study of Mus musculus with 6 samples.

Results

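Interferon-stimulated genes are the genes that cells switch on when an interferon binds its receptor, and 44 of them were examined among the 47360 gene symbols of the expression table. They were picked by symbol, as well-known members of the response, with the ratios between the media of these same libraries already known, so the ratios below are a description of the chosen genes and carry no test. The measurements came from dental epithelial organoids (DEOs), the epithelial bodies that adult dental epithelial stem cells (aDESCs) form when they are embedded in Matrigel, a basement membrane gel. The aDESCs were taken from the apical buds of incisors, the growing ends of the ever-growing mouse front teeth, of wild-type 9-week-old female C57BL/6J mice, and the DEOs were cultured for 14 days. All media held Wnt3a and R-spondin1 conditioned media, EGF at 100 µg/ml, Noggin at 200 µg/ml, N-acetylcysteine and Y27632. The medium +N held nothing further, +NF also held FGF10 at 100 µg/ml, +ND held dibenzazepine (DBZ) at 10 µM, and +NFD held both. The unit of the DBZ dose is that of the labels, whereas the study's methods text gives it in mmol/L, and the difference could not be settled here. DBZ inhibits gamma-secretase, the protease that releases the active fragment of Notch receptors, and is used as a Notch inhibitor. Of the 6 media in the labels, 2 with Jagged1 were not analysed here. Each medium had 1 library, so no difference below has a replicate check, and whether animals were pooled for a library is not given in the sources used here.

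Type I interferons bind the receptor chains Ifnar1 and Ifnar2, type II interferon binds Ifngr1 and Ifngr2, and type III interferons bind Ifnlr1 and Il10rb. The bound receptors activate the kinases Jak1, Tyk2 and Jak2, which phosphorylate Stat proteins. Stat2 and Irf9 act in the complex ISGF3, which binds a DNA element called the interferon-stimulated response element (ISRE), whereas type II interferon acts mainly through the gamma-activated sequence (GAS). The genes turned on in this way encode sensors of foreign RNA and DNA, enzymes and binding proteins that block the growth of viruses, and the Stat and Irf factors themselves. Some epithelial and stem cells are known to keep part of this program on without an infection.

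Values are FPKM, fragments scaled by transcript length and by library size, so that levels of different genes can be compared per length. A ratio is log2((FPKM+1)/(FPKM+1)) of 2 media, negative where the first is lower, and it understates differences of genes near or below 1 FPKM. A gene passed in a comparison when it was at 1 FPKM or more in the higher of its 2 libraries, and lower or higher without a fold refers to the sign of the ratio alone. The 4 libraries had between 12529 and 12959 genes at 1 FPKM or more. The smallest steps between low values put the depth of +ND roughly at 0.710 of that of +N, and those of +NF and +NFD at 0.997 and 0.915. The 8 markers of dental and basal epithelium were at 2.39 FPKM or more in all 4 media, with Krt15 the lowest at 2.39 to 8.62 and Krt5 between 4984 and 6582, and no endothelial marker of the 5 listed was above 0.201 FPKM. Nrarp, a direct Notch target, was at 18.2 FPKM in +N and 9.12 in +NF, and at 2.80 in +ND and 2.60 in +NFD. Of the 8 genes listed as Notch targets 3 passed, Nrarp, Hes1 and Notch3, and all 3 were at least 2-fold lower in +ND relative to +N, but 1, Nrarp, in +NFD relative to +NF. Hes1 was at 157 FPKM in +N and 109 in +NF, and 74.6 in +ND and 80.1 in +NFD, and Notch3 was at 23.4 and 19.7, and 7.90 and 11.3. Fewer cells of a type and less RNA per cell cannot be told apart in these bulk libraries.

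Stretches before the starts of 8 of the genes are shown first, because the letters of the ISRE stand in them. RefSeq windows on GRCm38.p6, from 250 bases before to 50 bases after each start, were searched for the letters GAAA, any 2 bases and GAAA again, or TTTC, any 2 bases and TTTC, which is the same element read from the opposite strand, with overlapping matches allowed. Stretches of 60 bases that hold the matches are printed 5′ to 3′ on the strand of the gene, with the matched letters in capitals.
Isg15, chr4:156200856-156200915, minus strand: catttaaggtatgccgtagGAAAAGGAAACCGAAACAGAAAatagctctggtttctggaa
Ifit1, chr19:34640769-34640828, plus strand: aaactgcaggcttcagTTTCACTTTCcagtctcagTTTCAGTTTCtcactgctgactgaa
Ifit3, chr19:34583365-34583424, plus strand: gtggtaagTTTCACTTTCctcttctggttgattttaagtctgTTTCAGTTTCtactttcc
Ifit3b, chr19:34607761-34607820, plus strand: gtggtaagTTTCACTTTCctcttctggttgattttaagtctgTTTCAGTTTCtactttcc
Oas1a, chr5:120907526-120907585, minus strand: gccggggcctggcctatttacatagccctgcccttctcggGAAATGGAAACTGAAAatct
Oas1g, chr5:120887614-120887673, minus strand: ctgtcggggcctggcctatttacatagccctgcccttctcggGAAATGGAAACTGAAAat
Bst2, chr8:71537565-71537624, minus strand: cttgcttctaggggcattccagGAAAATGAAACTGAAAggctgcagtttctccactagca
Rsad2, chr12:26456538-26456597, minus strand: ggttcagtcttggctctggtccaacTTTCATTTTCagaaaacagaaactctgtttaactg
In Isg15 the 3 matches overlap in 1 run, 78 to 57 bases before the RefSeq start, and in Ifit1 the 2 matches stand apart, 104 to 76 bases before it. Oas1a and Oas1g carry the same run of letters a few bases before their starts, and their printed stretches share 56 bases in a row. The Ifit3 and Ifit3b stretches are identical at 60 of 60 positions, although the genes lie in different places of 1 cluster. Rsad2 is shown because it carried the letters and was low in all 4 media.

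Of the 44 genes, 34 had a window, which is 77.3% and under the 80% needed for a comparison over the whole set, so that comparison is void and the shares are given as a description. The letters of the ISRE were present in 17 of these 34 genes, beside 3.99% of all 27025 genes with a window and 3.44% of all 32851 windows of the same length. The genes that held them were Ifit1, Ifit3, Ifit3b, Oas1a, Oas1g, Oas3, Gbp2, Gbp3, Igtp, Irgm1, Ifih1, Ddx58, Eif2ak2, Stat2, Isg15, Rsad2 and Bst2. The letters of the GAS, TTCNNNGAA on either strand, were present in 7 of the 34, beside 9.55% of all genes with a window and 8.30% of all windows, in Ifit2, Oas1a, Igtp, Eif2ak2, Irf1, Ifi35 and Bst2. Genes such as Irf7, Ifi44, Oasl2 and Xaf1 had neither in this window, which says only that these letters were not found there. No window was given for Oas2, Mx1, Mx2, Parp9, Parp14, Dhx58, Zbp1, Usp18, Ifi27 and Rtp4.

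Most of the genes followed 1 order of the media. In 42 of the 44 genes both media with DBZ were below both media without it, beside 15.3% of the 13748 genes at 1 FPKM or more in any library. The exceptions were Ifi47 and Epsti1. Mx1, Rsad2, Cmpk2 and Epsti1 were under 1 FPKM in every library. The median level of the 44 genes was 15.7 FPKM in +N and 14.7 in +NF, and it was 2.40 in +ND and 1.31 in +NFD. Their summed level was 1298 FPKM in +N and 1343 in +NF, and 348 in +ND and 291 in +NFD. At 10 FPKM or more were 27 genes in +N, 27 in +NF, 6 in +ND and 5 in +NFD, and no gene was at 0 in any library. The lowest of the 4 values was in +NFD for 34 genes and in +ND for 8, and the highest was in +N for 31 and in +NF for 12. For these counts, and for those at 10 FPKM or more, no share over all genes was computed, so they are a description only. In 38 genes the lower of the values without DBZ was at least 2 times the higher of the values with it, and in 7 genes at least 10 times, beside 2.39% and 0.364% of the 13748 genes. Of the 38, Mx1, Rsad2 and Cmpk2 were among the genes under 1 FPKM.

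**Figure D1:**
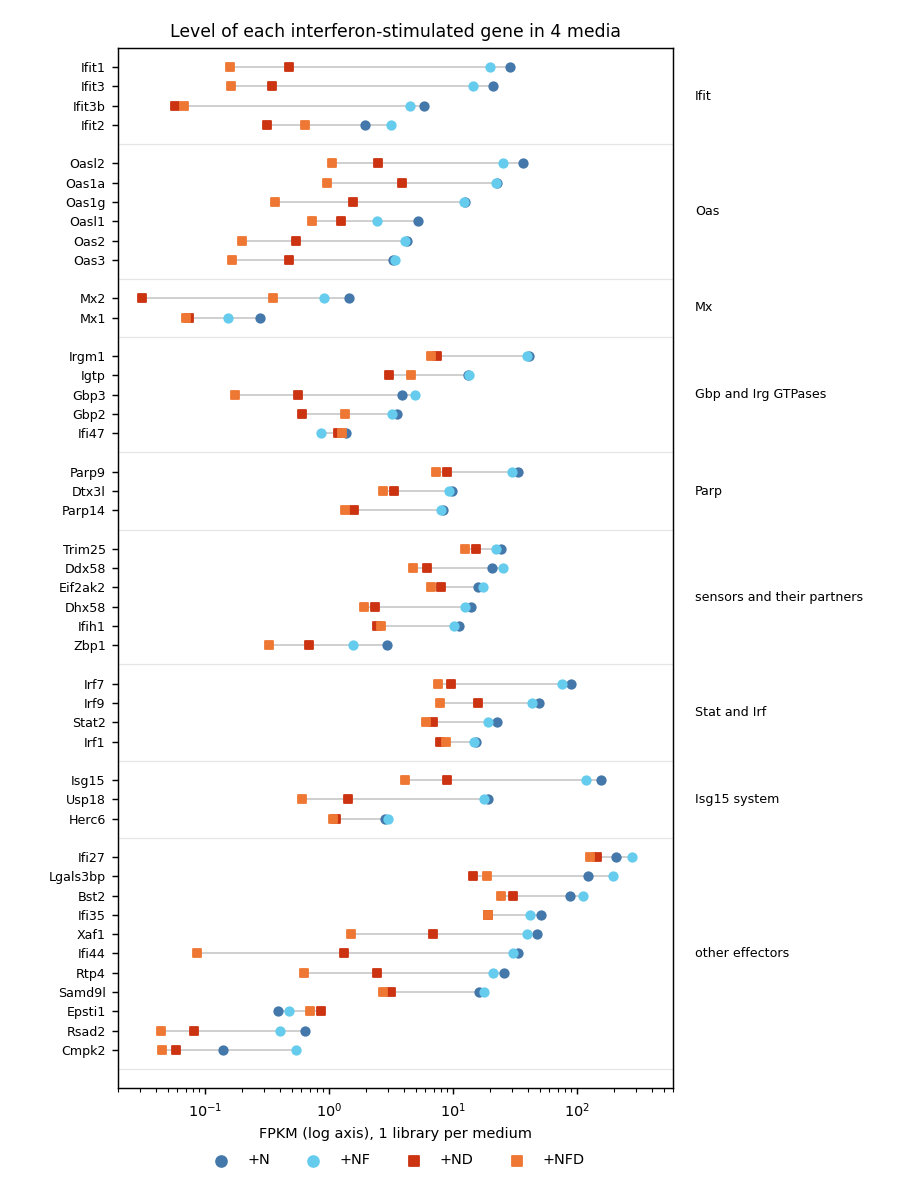
Level of each of the 44 genes in FPKM on a log axis, 1 point per library and gene, grouped by subfamily; circles are the media without DBZ (+N, +NF) and squares the media with it (+ND, +NFD). The squares lie to the left of the circles in 42 of the 44 genes, and the exceptions are Ifi47 and Epsti1.

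The first comparison asks how DEOs with DBZ differed from DEOs without it when no FGF10 was given. In +ND relative to +N, 40 of the 44 genes passed, all 40 were lower in +ND, and 34 were at least 2-fold lower. Among all 13173 genes that passed, 41.8% were lower, 5.29% were at least 2-fold lower and 5.88% at least 2-fold higher. The median ratio of the 40 genes was -1.79, beside 0.10 for all genes, and 16 were at least 4-fold and 7 at least 8-fold lower, beside 1.43% and 0.455% of all genes. In +NFD relative to +NF, the same comparison with FGF10 present, 39 genes passed, 38 were lower and 32 were at least 2-fold lower, with a median of -2.13. Here 42.8% of the 13349 genes that passed were lower, 2.69% at least 2-fold lower and 3.72% at least 2-fold higher, and their median was 0.048. Of the 39 genes 21 were at least 4-fold and 12 at least 8-fold lower, beside 0.734% and 0.315% of all genes. None of the genes that passed was at least 2-fold higher in either comparison. Epsti1 did not pass, and its FPKM in +ND was 219% of that in +N, at under 1 FPKM in both. In both comparisons 30 of the 39 genes that passed in both were at least 2-fold lower, beside 2.13% of 12774 genes, and 36 of the 44 were so in at least 1, beside 5.70% of the 13748 genes that passed in at least 1. The 2 comparisons share no library. Mx1, Rsad2, Cmpk2 and Epsti1 passed in neither, and Mx2 passed without FGF10 only. At 1 FPKM or more were 30 of the 44 genes in +ND and 25 in +NFD. The other genes that passed did so only through their level without DBZ, where they were high. They could hardly come out other than lower, so the filter shapes these counts. The scatter of both ratios shows the genes along the lower left of the cloud of all genes.

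**Figure D2:**
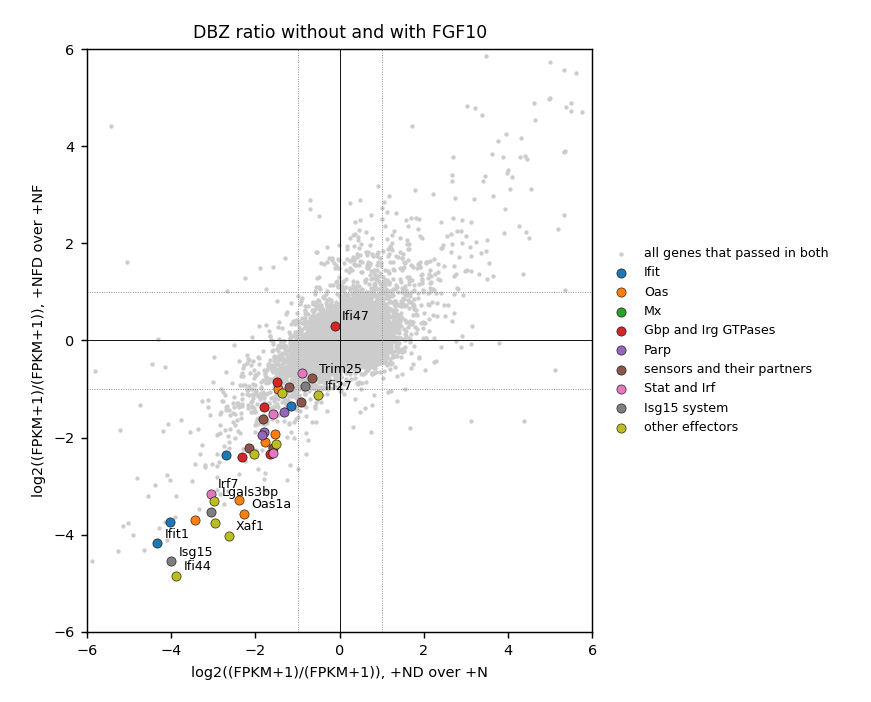
Log2 ratio of FPKM+1 in +ND over +N (horizontal axis) against +NFD over +NF (vertical axis) for the genes that passed in both comparisons, 12774 in all of which 23 lie outside the axes; small grey points are all genes, coloured points are the interferon-stimulated genes by subfamily, and dotted lines mark 2-fold. Of the 39 coloured points, 38 lie below 0 on both axes and Ifi47 lies above 0 on the vertical axis; no Mx gene passed in both.

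The Ifit genes, whose proteins bind foreign RNA that lacks the marks of the cell's own messenger RNA, lie together at chr19:34550694-34650009. Their median ratio was -3.36 without FGF10 and -3.05 with it, and all 4 were at least 2-fold lower in both comparisons. Ifit1 (ENSMUSG00000034459) was at 28.8 FPKM in +N and 20.0 in +NF, and 0.478 in +ND and 0.160 in +NFD, which is 60.1-fold lower without FGF10 and 125-fold lower with it. Ifit3 was at 20.9 FPKM in +N and 14.6 in +NF, and 0.345 in +ND and 0.163 in +NFD. In +ND these genes were at 1.66% and 1.65% of their levels in +N, and in +NFD at 0.800% and 1.12% of their levels in +NF. Ifit3b, a near copy of Ifit3, was at 5.88 FPKM in +N and 4.47 in +NF, and 0.0578 in +ND and 0.0681 in +NFD. Its level in +ND was under that of 3 fragments by the rough depth, so no fold is given for it. Of the 50-base stretches of the longest Ifit3 transcript, 51.2% also occur in Ifit3b, and how fragments were split between the pair is not known. Ifit2, the remaining member, was at 1.95 FPKM in +N and 3.18 in +NF, and 0.317 in +ND and 0.635 in +NFD, with ratios of -1.16 without FGF10 and -1.36 with it. It differed from the other 3 in having its highest value in +NF.

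The Oas genes encode sensors of double-stranded RNA that, when active, make the messenger molecule oligoadenylate for RNase L, and the Oasl genes encode their relatives. Their median ratio was -2.03 without FGF10, with 6 of 6 at least 2-fold lower, and -2.69 with it, with 5 of 6. Oasl2 was the most abundant, at 36.8 FPKM in +N and 25.5 in +NF, and 2.48 in +ND and 1.05 in +NFD. Oas1a was at 22.7 FPKM in +N and 22.4 in +NF, and 3.88 in +ND and 0.970 in +NFD, and its ratio was -2.28 without FGF10 and -3.57 with it. Oas1g was at 12.4 FPKM in +N and 12.4 in +NF, and 1.57 in +ND and 0.365 in +NFD, and its ratio was -2.38 without FGF10 and -3.29 with it. In both genes the values of +N and +NF were nearly equal, and +NFD was well under +ND. Oas1a and Oas1g share 57.6% and 54.1% of their 50-base stretches, so that the level of each is uncertain beside the other. Oas2 was at 4.30 FPKM in +N and 4.13 in +NF, and 0.546 in +ND and 0.200 in +NFD. Oas3 was at 3.28 FPKM in +N and 3.44 in +NF, and 0.472 in +ND and 0.166 in +NFD. These 4 genes lie in 1 cluster at chr5:120730333-120907521. Oasl1 was at 5.19 FPKM in +N and 2.45 in +NF, and 1.25 in +ND and 0.733 in +NFD, and its ratio with FGF10, -0.99, was just short of 2-fold. Its level in +NF was below that in +N, with a ratio of -0.84, the lowest among the 44 genes in that comparison.

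Mx1 and Mx2 belong to a family of dynamin-like GTPases known to block viruses, and whether either does so in this strain was not examined. Mx1 was at 0.278 FPKM in +N and 0.155 in +NF, and 0.0742 in +ND and 0.0697 in +NFD, under 1 FPKM in all 4 libraries, and RefSeq lists it as a transcribed pseudogene in the reference strain. Mx2 was at 1.46 FPKM in +N and 0.911 in +NF, and 0.0310 in +ND and 0.351 in +NFD, and its ratio without FGF10 was -1.26. The value in +ND was under that of 3 fragments, and in +NFD it was higher than in +ND.

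Gbp2 and Gbp3 encode guanylate-binding proteins and Igtp, Irgm1 and Ifi47 encode immunity-related GTPases, which act on the vacuoles of intracellular pathogens and are known above all as targets of type II interferon. Their median ratio was -1.65 without FGF10, with 4 of 5 at least 2-fold lower, and -1.37 with it, with 3 of 5. Irgm1 was the most abundant, at 41.4 FPKM in +N and 39.3 in +NF, and 7.44 in +ND and 6.60 in +NFD, and the ratios were -2.33 without FGF10 and -2.41 with it. Igtp was at 13.1 FPKM in +N and 13.5 in +NF, and 3.03 in +ND and 4.60 in +NFD, with ratios of -1.81 without FGF10 and -1.37 with it. Of the 50-base stretches of Igtp, 12.3% also occur in Irgm2. Both genes were above the values of the DBZ media in +N and +NF alike. Gbp2 was at 3.54 FPKM in +N and 3.24 in +NF, and 0.607 in +ND and 1.36 in +NFD, with ratios of -1.50 without FGF10 and -0.85 with it. Gbp3 itself lies at chr3:142560026-142573209, in 1 cluster with Gbp2. It was at 3.91 FPKM in +N and 4.98 in +NF, and 0.562 in +ND and 0.175 in +NFD, with ratios of -1.65 without FGF10 and -2.35 with it. In +NFD relative to +ND these 2 genes differed in direction, since Gbp2 was higher and Gbp3, which was under 1 FPKM in both, was lower in +NFD. Ifi47 was at 1.38 FPKM in +N and 0.855 in +NF, and 1.19 in +ND and 1.28 in +NFD, and its ratios of -0.12 without FGF10 and 0.30 with it made it the one gene that passed and was higher in +NFD than in +NF. Its 4 values overlap between the media with and without DBZ.

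Parp9 and Parp14 encode ADP-ribosyltransferases and Dtx3l the ubiquitin ligase that works with Parp9. All 3 genes were at least 2-fold lower in both comparisons, with medians of -1.80 and -1.89. Parp9 was at 33.4 FPKM in +N and 30.0 in +NF, and 8.89 in +ND and 7.34 in +NFD. Dtx3l, which overlaps it on the opposite strand, was at 9.80 FPKM in +N and 9.29 in +NF, and 3.34 in +ND and 2.70 in +NFD. Parp14 was at 8.33 FPKM in +N and 8.07 in +NF, and 1.58 in +ND and 1.34 in +NFD. Their ratios lay between -1.32 and -1.95, the narrowest range of the subfamilies with 3 or more genes that passed. Because the strand setting of the counting is not given, fragments from the overlap of Parp9 and Dtx3l cannot be assigned with certainty.

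Among the sensors and their partners, Ddx58 encodes RIG-I and Ifih1 encodes MDA5, which detect viral RNA in the cytoplasm, Dhx58 encodes their relative LGP2, Zbp1 detects Z-form nucleic acid, Eif2ak2 encodes the kinase PKR, and Trim25 a ubiquitin ligase linked to RIG-I signalling. Their median ratio was -1.40 without FGF10 and -1.45 with it, and 4 of 6 were at least 2-fold lower in each. Ddx58 was at 20.8 FPKM in +N and 25.6 in +NF, and 6.23 in +ND and 4.76 in +NFD, with ratios of -1.59 without FGF10 and -2.20 with it. Ifih1 was at 11.2 FPKM in +N and 10.2 in +NF, and 2.44 in +ND and 2.64 in +NFD, with ratios of -1.83 without FGF10 and -1.62 with it. Dhx58 was at 14.0 FPKM in +N and 12.5 in +NF, and 2.37 in +ND and 1.92 in +NFD, with ratios of -2.15 without FGF10 and -2.21 with it. The 3 related helicases were thus between 3.33-fold and 6.53-fold lower with DBZ. An antisense transcript of Dhx58, Dhx58os, went the other way, at 0.478 FPKM in +N and 0.568 in +NF, and 8.77 in +ND and 2.95 in +NFD, and without a known strand setting the reads of the pair cannot be told apart. Zbp1 was at 2.92 FPKM in +N and 1.56 in +NF, and 0.695 in +ND and 0.328 in +NFD, and its ratio was -1.21 without FGF10 and -0.95 with it. Eif2ak2 was at 16.0 FPKM in +N and 17.6 in +NF, and 7.98 in +ND and 6.68 in +NFD, and its ratio was -0.92 without FGF10 and -1.28 with it. Trim25 was at 24.5 FPKM in +N and 22.1 in +NF, and 15.2 in +ND and 12.4 in +NFD, and it was under 2-fold in both comparisons.

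Of the transcription factors, Stat2 and Irf9 belong to ISGF3, Irf7 drives the transcription of type I interferons, and Irf1 acts downstream of type II interferon. Irf7 was at 88.9 FPKM in +N and 75.8 in +NF, and 9.71 in +ND and 7.61 in +NFD, 9.15-fold and 9.96-fold lower with DBZ. It overlaps Phrf1 on the opposite strand, which was between 18.0 and 21.3 FPKM. Irf9 was at 49.6 FPKM in +N and 43.3 in +NF, and 15.9 in +ND and 7.91 in +NFD, with ratios of -1.58 without FGF10 and -2.31 with it. Stat2 was at 22.6 FPKM in +N and 19.1 in +NF, and 6.91 in +ND and 6.02 in +NFD, with ratios of -1.58 without FGF10 and -1.52 with it. Irf1 was at 15.3 FPKM in +N and 14.7 in +NF, and 7.84 in +ND and 8.87 in +NFD, and it was under 2-fold in both comparisons, with ratios of -0.89 without FGF10 and -0.67 with it. Irf9 overlaps Rnf31 on the same strand, which was at 16.7 FPKM in +N and 14.2 in +NF, and 8.38 in +ND and 11.0 in +NFD.

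Isg15 is a ubiquitin-like protein that is attached to other proteins, Usp18 removes it and also blocks Ifnar2, and Herc6 is the mouse ligase that attaches it. Isg15 (ENSMUSG00000035692, chr4:156199424-156200818) was at 157 FPKM in +N and 118 in +NF, and 8.87 in +ND and 4.09 in +NFD, 17.7-fold lower without FGF10 and 28.9-fold lower with it. Usp18 was at 19.1 FPKM in +N and 17.7 in +NF, and 1.41 in +ND and 0.610 in +NFD, with ratios of -3.06 without FGF10 and -3.54 with it. Herc6 was at 2.81 FPKM in +N and 2.97 in +NF, and 1.14 in +ND and 1.07 in +NFD, with ratios of -0.83 without FGF10 and -0.94 with it, so that the ligase did not reach 2-fold on this scale, although its FPKM was 2.46-fold and 2.77-fold lower. Of the 50-base stretches of Herc6, 23.8% also occur in Gm45193.

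The other 11 genes encode proteins that act on viruses or on the cell in different ways. Of the 8 that passed, 7 were at least 2-fold lower without FGF10 and 8 with it, with medians of -2.34 and -2.82. Ifi44, an interferon-induced cytoplasmic protein, was at 33.4 FPKM in +N and 30.2 in +NF, and 1.33 in +ND and 0.0862 in +NFD, and its ratio of -4.85 with FGF10 was the lowest among the 44 genes. Xaf1, a protein that opposes the inhibitor of apoptosis XIAP, was at 48.0 FPKM in +N and 39.8 in +NF, and 6.90 in +ND and 1.52 in +NFD, with ratios of -2.63 without FGF10 and -4.02 with it. Rtp4, a receptor transporter protein, was at 25.9 FPKM in +N and 21.1 in +NF, and 2.45 in +ND and 0.628 in +NFD, with ratios of -2.96 without FGF10 and -3.77 with it. These 3 genes had in common that +NFD was at least 2-fold below +ND. Of the 50-base stretches of Rtp4, 13.6% also occur in Gm45338. Lgals3bp, a secreted glycoprotein that binds galectin, was at 122 FPKM in +N and 196 in +NF, and 14.6 in +ND and 18.8 in +NFD, 8.37-fold and 10.4-fold lower with DBZ. It was the gene with the highest ratio in +NF relative to +N, 0.68. Bst2, the membrane protein tetherin that holds budding viruses at the cell surface, was at 88.8 FPKM in +N and 111 in +NF, and 30.3 in +ND and 24.5 in +NFD, with ratios of -1.52 without FGF10 and -2.13 with it. Ifi35, which was at 51.4 FPKM in +N and 41.6 in +NF, and 19.3 in +ND and 19.2 in +NFD, had nearly the same level in the DBZ media. Samd9l, a cytoplasmic restriction factor, was at 16.3 FPKM in +N and 17.7 in +NF, and 3.20 in +ND and 2.73 in +NFD, with ratios of -2.04 without FGF10 and -2.33 with it. Ifi27, the most abundant of the 44 genes, was at 208 FPKM in +N and 280 in +NF, and 144 in +ND and 128 in +NFD. Its ratio was -0.52 without FGF10 and -1.12 with it, so that the most abundant gene was under 2-fold without FGF10 and past it with FGF10. Rsad2, which encodes the antiviral enzyme viperin, was at 0.642 FPKM in +N and 0.403 in +NF, and 0.0820 in +ND and 0.0442 in +NFD. Cmpk2, a mitochondrial nucleotide kinase that lies next to Rsad2 at chr12:26469204-26479835, was at 0.141 FPKM in +N and 0.547 in +NF, and 0.0589 in +ND and 0.0451 in +NFD. Epsti1 was at 0.391 FPKM in +N and 0.472 in +NF, and 0.858 in +ND and 0.699 in +NFD. The first 2 of these low genes were lowest with DBZ and Epsti1 was higher with it, all at under 1 FPKM.

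**Figure D3:**
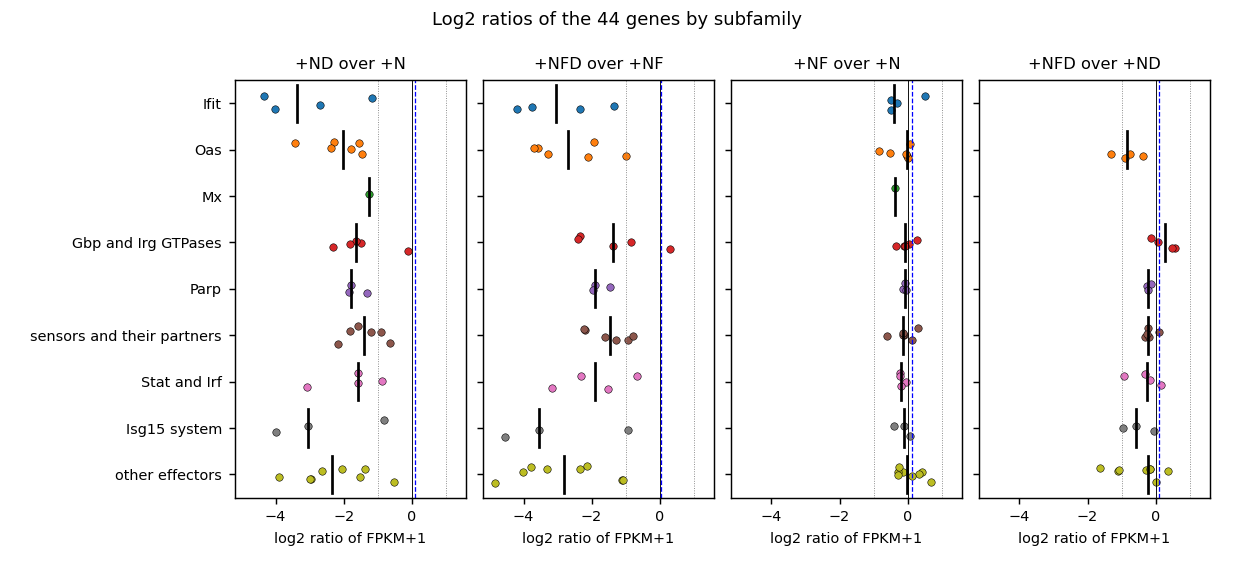
Log2 ratios of FPKM+1 for the genes that passed, by subfamily (rows) and comparison (4 panels); each point is 1 gene, black bars are the medians of a subfamily, the dashed blue line is the median of all genes that passed, and dotted lines mark 2-fold. The Ifit and Isg15 medians, -3.36 and -3.06 in +ND relative to +N, lie farthest to the left, and in the panel of +NF over +N no gene reaches 2-fold.

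Position was not itself used to choose the genes, but several were picked from the same families, such as Ifit, Oas, Mx and Gbp. Clusters are thus not independent of the choice, and no share over all genes was computed. The 44 genes lay on 14 chromosomes, and 21 of them stood in 8 clusters with gaps of at most 500 kb. Beside the Ifit and Oas clusters these were Oasl1 with Oasl2 on chromosome 5, Parp14 with Dtx3l and Parp9 and, apart from them, Mx1 with Mx2 on chromosome 16, Gbp2 with Gbp3 on chromosome 3, Irgm1 with Ifi47 on chromosome 11, and Rsad2 with Cmpk2 on chromosome 12. Genes of 1 cluster did not always have like ratios. Within the Ifit cluster the ratio without FGF10 ran from -4.33 for Ifit1 to -1.16 for Ifit2, and Irgm1 was at -2.33 where Ifi47 was at -0.12.

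How the genes differed with FGF10 is shown by +NF relative to +N and by +NFD relative to +ND. In +NF relative to +N, 40 genes passed and none was at least 2-fold lower or higher, beside 2.44% and 2.76% of the 13090 genes that passed. Their median was -0.11, beside 0.12 for all genes. The ratios ran from -0.84 for Oasl1 to 0.68 for Lgals3bp, with 29 genes lower and 11 higher, beside 34.3% of all genes lower. Of the 11, Herc6, Igtp, Oas3 and Samd9l turned lower when the ratios were centred on the median of all genes, and Igtp and Oas3 did so with upper-quartile scaling. In +NFD relative to +ND, 31 genes passed, 25 were lower and 6 were higher, with a median of -0.23. At least 2-fold lower were Xaf1 with -1.65, Oas1a with -1.31, Ifi44 with -1.10 and Rtp4 with -1.08, which is 4 of 31, and none was at least 2-fold higher. Of these, Oas1a, Ifi44 and Rtp4 were under 1 FPKM in +NFD and passed only through their level in +ND. Genes under 1 FPKM in both media, among them all Ifit genes, did not pass, so the filter shapes these counts. Of the 13293 genes that passed, 41% were lower, 3.11% at least 2-fold lower and 3.39% at least 2-fold higher. Ifi47 and Ifih1, 2 of the 6 higher genes, turned lower with centring. The DBZ comparisons share their libraries with these, so that the 4 sets of ratios are not independent. All-gene calls split as 697 lower and 774 higher in +ND relative to +N, and 842 and 615 after centring. The split was 319 and 361 in +NF relative to +N, and 412 and 248 after centring. In +NFD relative to +ND it was 414 and 450, and 506 and 345 after centring.

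The difference between the DBZ ratio with FGF10 and that without it had a median of -0.16 over the 39 genes that passed in both, beside -0.027 over 12774 genes. It was negative, meaning a lower DBZ ratio in the presence of FGF10, in 27 of the 39, which is 69.2% beside 52.3% of all genes. For genes near the floor this sign depends on the pseudocount, in either direction. Ifit1 had a difference of 0.15, although its FPKM was 60.1-fold lower without FGF10 and 125-fold lower with it. Ifit2 had a difference of -0.19, although its FPKM was 6.13-fold lower without FGF10 and 5.01-fold lower with it. The difference ran from -1.39 for Xaf1 and -1.29 for Oas1a to 0.65 for Gbp2. Ifi44 was at -0.96, Oas1g at -0.91 and Rtp4 at -0.80, while Irf7 was at -0.09, Irgm1 at -0.08 and Stat2 at 0.06. Across all 44 genes +NFD was below +ND in 35, beside 8866 of all 47360 gene symbols, many of which were not detected. This count includes genes under 1 FPKM in both media, whose order rests on few fragments, so it is a description only.

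Upstream of the 44 genes, most receptors and kinases were within 2-fold. All 21 interferon ligand genes that were listed were at or under 0.164 FPKM in all 4 libraries, and 17 were at 0 in each. The receptor chains Ifnar1 and Ifnar2 were at 16.0 and 20.2 FPKM in +N, 17.7 and 23.7 in +NF, 15.6 and 14.9 in +ND, and 18.2 and 22.7 in +NFD. Their ratios with DBZ were -0.03 and -0.41 without FGF10 and 0.04 and -0.06 with it. By the ratio, Ifngr1 was the one receptor gene at least 2-fold lower with DBZ, at 135 FPKM in +N and 77.3 in +NF, and 35.8 in +ND and 35.3 in +NFD. Its partner Ifngr2 was between 18.8 and 26.8 FPKM. The type III chain Ifnlr1 was between 3.26 and 4.22 FPKM, and Il10rb was at 33.9 in +N, 29.0 in +NF, 16.9 in +ND and 26.4 in +NFD. The FPKM of Il10rb was 2.01-fold lower in +ND than in +N, but its ratio, -0.97, did not reach 2-fold. Jak1 was between 30.5 and 35.9 FPKM, Jak2 between 13.4 and 19.3, and Tyk2 between 9.01 and 12.0, and none of the 3 kinases reached 2-fold. Irf2, a factor that binds the same kind of element as Irf1, had ratios of -1.21 without FGF10 and -0.61 with it.

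Genes that lead to interferon production were mostly within 2-fold. Of the 10 that passed, 1 was at least 2-fold lower in each comparison, the RNA sensor Tlr3, at 6.50 FPKM in +N and 8.12 in +NF, and 1.21 in +ND and 1.77 in +NFD. Of the 9 negative regulators 2 were at least 2-fold lower in each, the RNA editor Adar with ratios of -1.31 and -1.29 and the nucleotide hydrolase Samhd1 with -1.67 and -1.42. Socs1 and Socs3, which block the receptor kinases, were among the 5 pathway genes with the highest mean DBZ ratio, at 0.48 and 0.79 for Socs1 and 0.61 and 0.62 for Socs3. The others of these 5 were Nt5c3 at 2.13 and 0.74, Lap3 at 0.79 and 0.31 and Mb21d1, which encodes the DNA sensor cGAS, at 0.61 and -0.07.

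A further 70 interferon-stimulated genes were listed from general knowledge, but with earlier results of these data known, so their ratios are likewise a description. Most of those that passed were lower with DBZ. In +ND relative to +N 53 passed, 48 were lower, 22 were at least 2-fold lower and 1, Nt5c3, was at least 2-fold higher, with a median of -0.89, beside 41.8%, 5.29% and 5.88% of all genes that passed. In +NFD relative to +NF 54 passed, 51 were lower, 23 were at least 2-fold lower and none was past 2-fold in the other direction, with a median of -0.78, beside 42.8%, 2.69% and 3.72% of all genes. The 5 with the lowest mean of both ratios were Ifi27l2a, Ifi205, Apol9b, Apol9a and Phf11d. Ifi27l2a, a small interferon-induced protein related to Ifi27, was at 476 FPKM in +N and 307 in +NF, and 26.7 in +ND and 16.8 in +NFD. Apol9a and Apol9b, a closely related pair, were at 6.00 and 8.31 FPKM in +N and at 0.0381 and 0.0896 in +NFD. Ifi205, a DNA-binding protein, was at 12.9 FPKM in +N and 11.4 in +NF, and 1.21 in +ND and 0.447 in +NFD. Phf11d was at 37.6 FPKM in +N and 35.0 in +NF, and 9.12 in +ND and 4.75 in +NFD.

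**Figure D4:**
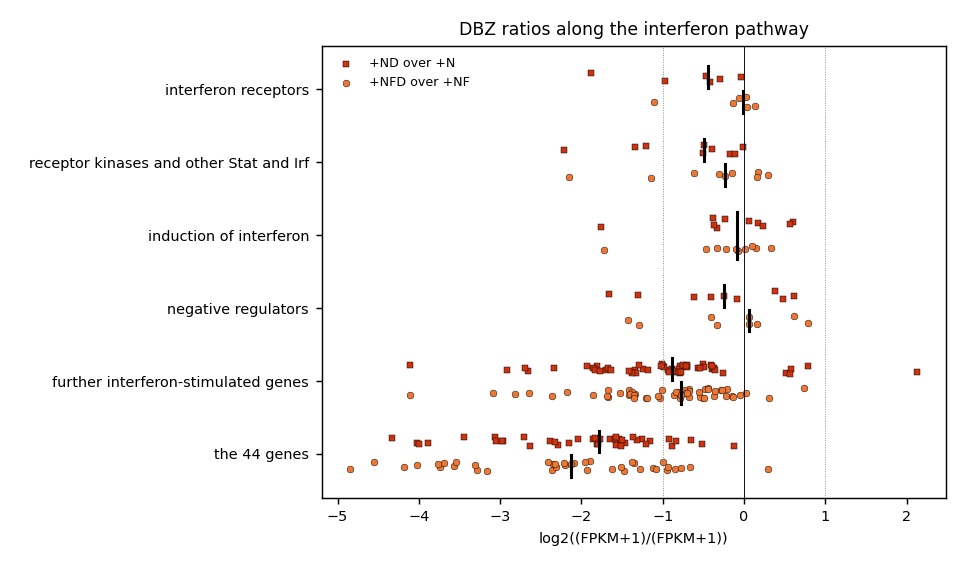
Log2 ratios of FPKM+1 with DBZ over without DBZ for genes of the interferon pathway that passed, by step (rows); each point is 1 gene, squares are +ND over +N, circles are +NFD over +NF, black bars are medians and dotted lines mark 2-fold. The medians are -0.44 and -0.01 for the receptors and -0.89 and -0.78 for the further stimulated genes, and -1.79 and -2.13 for the 44 genes in the lowest row.

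Genes other than the 44 were also grouped by their windows. Of 328 other genes with the letters of the ISRE that passed in +ND relative to +N, 35 were at least 2-fold lower, which is 10.7%, beside 4.06% of 9167 without them. In +NFD relative to +NF it was 25 of 329, or 7.60%, beside 1.71% of 9265. The medians of both groups were near each other, 0.04 and 0.12 without FGF10 and 0.00 and 0.05 with it. These other genes include the further stimulated genes.

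Markers of other cells were measured beside the 44 genes. The summed level of 15 leukocyte markers was 693 FPKM in +N and 508 in +NF, and 545 in +ND and 431 in +NFD, so that the values with and without DBZ overlap. Cd3e of T cells and Siglech of plasmacytoid dendritic cells were at 0 in all 4 libraries, and Lyz2 was between 288 and 528 FPKM. Of the leukocyte markers that passed, 2 of 11 were at least 2-fold lower in +ND and 0 of 10 in +NFD. The macrophage marker Aif1 was lower with DBZ, at 48.7 FPKM in +N and 42.7 in +NF, and 10.9 in +ND and 22.4 in +NFD, while Cd68 was higher, at 23.5 and 16.2 against 36.2 and 32.9. Markers of secretory epithelium were lower in the DBZ comparisons, as were most of the 44 genes. Of the 8 that passed, 7 were at least 2-fold lower in each DBZ comparison, and the summed level of the 10 markers was 875 FPKM in +N and 1238 in +NF, and 113 in +ND and 367 in +NFD. In +NFD relative to +ND the 6 that passed were all higher, 3 of them at least 2-fold, beside 3.39% of all genes. Their median there was 1.10, and that of the 31 of the 44 genes that passed was -0.23. Among the secretory markers Bpifa1 was at 0 in all 4 libraries. Markers of dental and basal epithelium were lower with DBZ in part. Of the 8, 3 were at least 2-fold lower in +ND relative to +N, Cdh1, Krt14 and Epcam with ratios of -1.25, -1.19 and -1.15, and 1 in +NFD relative to +NF, Epcam with -1.14. Epcam was at 122 FPKM in +N and 218 in +NF, and 54.8 in +ND and 98.4 in +NFD, so that both media with DBZ were below both without it. The sum of 8 suprabasal markers was 905 FPKM in +N, 123 in +NF, 2746 in +ND and 737 in +NFD, of which Krtdap made up 1982 FPKM in +ND. Its members differed in direction in +ND relative to +N, where Krt1, Lor, Sbsn and Krtdap were at least 2-fold higher and Krt4, Krt13 and Krt10 lower, with ratios of -2.67, -1.75 and -1.49. With FGF10 present, 6 of the 8 were at least 2-fold higher with DBZ and none was at least 2-fold lower. The sum of 8 fibroblast markers was highest in +NFD, at 378 FPKM beside 94.6 to 153 in the other 3. The part of secretory, basal and suprabasal cells, leukocytes and fibroblasts in the levels of the 44 genes was not tested. Of 10 housekeeping genes none was at least 2-fold different in +ND relative to +N, and 9 of 10 were within 2-fold in +NFD relative to +NF.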

How the data were processed

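RNA of DEOs from 4 media was measured, with 1 library per medium. Per the submitters' processing notes, reads were inspected in FastQC 0.11.9, trimmed by Trim Galore 0.6.5 and mapped by TopHat2 2.1.1, with GRCm38 as the genome. The authors deposited FPKM values, which they estimated with Cufflinks. The annotation release, strand setting and Cufflinks options are not given in the sources used here. FPKM of low or short transcripts rests on few fragments. Depth was estimated only roughly, from the smallest steps of FPKM multiplied by transcript length in genes of at least 1000 nt, so no interval is given.

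The 44 genes and all gene lists were chosen with earlier results of these data known. Entries with 1 symbol were summed (123 symbols, none of them among the 44). Ratios used a pseudocount of 1, a minimum of 1 FPKM in the higher library and a 2-fold limit, with no test, because each medium had 1 library. Genes were named by rule: every member past 2-fold with DBZ, the highest and lowest of each subfamily, the receptors, the kinases and the 5 furthest pathway genes in each direction. Some genes that this rule or the lists cover are not reported here. The other members, and single genes of the pathway and marker lists, were named beyond that rule after their values were seen. Alternatives were a pseudocount of 0.1 or none, no filter or 5 FPKM, upper-quartile scaling, centring, the highest entry of a symbol, and leaving out near-identical paralogs. Gene positions were those deposited with the FPKM values. Transcripts came from the mouse GENCODE annotation of GRCm38, and starts from RefSeq. Calculations used Python 3.11.15, numpy 2.4.6, pandas 2.3.3 and matplotlib 3.10.9 and were tested on simulated data.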

Additional observations from a re-analysis of the deposited data

Results flagged for a closer look

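Ddx58 and Bst2 stood out because FGF10 went with opposite directions in the backgrounds without and with DBZ, each by at least 0.25 on the log2 scale. Ddx58 had a ratio of 0.29 in +NF relative to +N and of -0.33 in +NFD relative to +ND. Bst2 had 0.32 and -0.29 in the same comparisons. In +NF relative to +N the values fell below 0.25 under both scaling alternatives, to 0.21 for Ddx58 and 0.24 for Bst2 with upper-quartile scaling and to 0.17 and 0.20 after centring, with the direction kept. The difference was not tested, since each medium had 1 library.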

How the results depend on the processing

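No paired analysis was possible because each medium had 1 library, and no library could be left out for the same reason. Of the 146 summary values recomputed under alternatives 131 stayed close to the reported value and 15 moved. With a pseudocount of 0.1 the median of the 44 genes was -2.34 in +ND relative to +N and -2.50 in +NFD relative to +NF, and without a pseudocount it was -2.51 and -2.57. With a pseudocount of 0.1, 1 gene was at least 2-fold lower in +NF relative to +N, beside 3.67% of all genes. In +NFD relative to +ND 8 were at least 2-fold lower, beside 4.33%, and 1 was at least 2-fold higher, beside 818 of 13293 genes. Without a pseudocount these counts were 1, 9 and 1, beside 3.66% and 4.41% of all genes lower and 829 of 13209 higher. With no filter the median of the 70 further genes was -0.74 and -0.67 in the DBZ comparisons. At 5 FPKM or more 1 gene was at least 2-fold lower in +NFD relative to +ND, beside 3.09% of all genes. After centring 7 were, beside 3.81% of all genes, and the median in +NF relative to +N was -0.23. All 40 genes that were lower in +ND, and all 38 that were lower in +NFD relative to +NF, kept that direction under each alternative in which they were measured. Levels under about 3 fragments, as of Ifit3b and Mx2 in +ND, limit what a ratio can show.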
